A study of Mus musculus with 9 samples.

Results

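The cathepsins described here are 10 lysosomal protease genes of the mouse, namely Ctsa, Ctsb, Ctsc, Ctsd, Ctse, Ctsh, Ctsk, Ctsl, Ctss and Ctsz. They were chosen by symbol, by matching the Ensembl identifiers of the deposited table to the GENCODE M21 annotation. They make up 10 of the 53379 genes in the table, and all 10 were above the level needed for testing, a mean of at least 0.5 FPKM over the libraries, which 12824 genes reached. FPKM is the number of sequenced fragments per 1000 bases of a gene's exons and per 1000000 fragments of the library. Levels of different genes can thus be set side by side only roughly, since the exon length joins all annotated isoforms.

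Bone marrow (BM) cells of wild-type C57BL/6 mice were grown for 3 days with 10 ng/ml of the growth factor M-CSF, which turns them into macrophages (Mϕs). For a further 4 days the control Mϕs received 10 ng/ml M-CSF alone, the IL-4-treated Mϕs M-CSF with 10 ng/ml IL-4, and the IL-6-treated Mϕs M-CSF with 100 ng/ml IL-6. Polyadenylated RNA of whole cultures was sequenced in 3 libraries per group, numbered #1 to #3. The doses and times are those of the deposited labels. The study's methods give a higher IL-4 dose, the same as that of IL-6. The legends of its RNA-seq figures give another dose, equal for both cytokines, and a shorter treatment. Which dose and time these libraries received was not settled.

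Cathepsins are made as inactive precursors, sorted to endosomes and lysosomes, and activated there by cleavage at acid pH. Most are cysteine proteases of the papain type (Ctsb, Ctsc, Ctsh, Ctsk, Ctsl, Ctss, Ctsz), Ctsd and Ctse are aspartic proteases, and Ctsa is a serine carboxypeptidase. In Mϕs they digest proteins taken up from outside, and some are also known for processing MHC class II molecules or for breaking down matrix outside the cell.

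The libraries held 29988160 to 39909571 fragments, and Csf1r, the M-CSF receptor that marks Mϕs, was at 168 to 751 FPKM in every library. The libraries fall into sets that cross the groups. The summed FPKM of 15 Paneth and goblet cell genes, which belong to the gut, stood at 29.7 to 45.1 in the 3 controls and IL-4 #1. In the 5 remaining libraries it stood at 0.0139 to 0.175. The controls are thus all in the first set and the IL-6 libraries all in the second, so the set and IL-6 treatment cannot be told apart except through IL-4 #1. IL-4 #2 and IL-4 #3 also differed from each other. Over 12809 genes, the deviation from the group mean correlated with log2 exon length at r = −0.235 in IL-4 #3 and 0.253 in IL-4 #2. These were the lowest and highest of all libraries. Deviations within a group cancel out, so these values do not single out IL-4 #3. Of all single libraries, leaving out IL-4 #3 gave the most calls over all genes in each comparison. For IL-4 against control they went from 3186 to 4848. Where the fit without IL-4 #3, or with a term for the set, ended the call of a named gene, its adjusted p in that fit is given.

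Promoter sequences were read for every member with an entry, to show what lies before the starts. RefSeq (build GRCm38.p6) had entries for 7 of the 10 genes, with 2 starts for Ctsa. The 250 bases before each start were searched for CACGTG, the core of the site bound by the lysosomal gene regulator TFEB and its relatives, and for TTCNNNGAA and TTCNNNNGAA, the spacings that STAT factors bind, STAT6 downstream of IL-4 and STAT3 downstream of IL-6. All of these motifs read the same on both strands. Printed below are the windows of Ctsk and Ctss, which rose with IL-4, and of Ctsc, which rose with IL-6, with motifs in capitals.
Ctsk (chromosome 3, 95498960 to 95499209, plus strand): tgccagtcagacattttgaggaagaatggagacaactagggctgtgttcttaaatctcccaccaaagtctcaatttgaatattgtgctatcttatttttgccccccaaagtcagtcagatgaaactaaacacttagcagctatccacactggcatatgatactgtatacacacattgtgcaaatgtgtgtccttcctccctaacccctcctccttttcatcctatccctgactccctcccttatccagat
Ctss (chromosome 3, 95526536 to 95526785, plus strand): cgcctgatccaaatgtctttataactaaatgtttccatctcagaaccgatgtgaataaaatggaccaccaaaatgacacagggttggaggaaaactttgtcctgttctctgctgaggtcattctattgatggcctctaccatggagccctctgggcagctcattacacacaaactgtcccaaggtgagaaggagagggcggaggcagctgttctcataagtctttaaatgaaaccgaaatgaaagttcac
Ctsc (chromosome 7, 88277835 to 88278084, plus strand): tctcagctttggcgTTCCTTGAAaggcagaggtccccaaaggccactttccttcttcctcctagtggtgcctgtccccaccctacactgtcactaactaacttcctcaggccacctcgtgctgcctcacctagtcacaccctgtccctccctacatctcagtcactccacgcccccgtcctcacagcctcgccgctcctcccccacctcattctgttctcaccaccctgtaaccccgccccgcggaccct

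The Ctsc window holds 1 match of TTCNNNGAA, 236 bases before the start, and neither the Ctsk nor the Ctss window holds any of the 3 motifs. Of 32851 promoter windows of the same length, 7.02% hold TTCNNNGAA, 5.85% hold TTCNNNNGAA and 6.02% hold CACGTG. The last of these was found before 3 other cathepsins and is printed here with up to 10 bases on either side, because it was the only motif met in more than 1 member.
Ctsd (245 bases before the start): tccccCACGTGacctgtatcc
Ctsd (98 bases before the start): gcccgcgtctCACGTGacccgttgag
Ctsl (236 bases before the start): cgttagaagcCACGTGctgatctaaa
Ctsa (12 bases before the second start): agcaaactgtCACGTGatgcag
The Ctsl window and the second Ctsa window lie inside the span that GENCODE M21 gives the gene, and the Ctsd window overlaps it. The Ctsz window holds none of the motifs. These matches describe letters in a window and were not tested as binding sites.

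In control Mϕs the cathepsin mRNA pool was led by Ctsd, Ctsb and Ctss. Ctsd, the main aspartic protease of lysosomes, made up 39.1% ± 2.09 (SD, n = 3) of the summed FPKM of the 10 genes, Ctsb 30.9% ± 1.51 and Ctss 16.6% ± 0.844. Ctsd and Ctsb overlapped between libraries, and each further step down, from Ctsb to Ctss, Ctsz and Ctsa, was beyond the spread of the libraries. Ctsh and Ctsl overlapped at 1.15% ± 0.0685 and 1.11% ± 0.135. Ctsc, Ctsk and Ctse closed the order at 0.327%, 0.0538% and 0.0254%.

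With IL-4 the order changed. Ctss made up 32.2% ± 5.44 of the pool and Ctsd 31.3% ± 6.10, and their FPKM overlapped between libraries, while Ctsb made up 19.3% ± 2.73. Ctsl came before Ctsa, at 2.64% ± 0.368 against 1.55% ± 0.108. Ctsk made up 1.31% ± 0.199, a level that overlapped that of Ctsa. In IL-6-treated Mϕs the order was Ctsd at 32.2% ± 0.477, then Ctsb at 26.4% ± 0.878 and Ctss at 23.9% ± 0.639, the last pair overlapping in FPKM, and Ctsc made up 1.84% ± 0.226. The exon lengths behind these levels join all annotated isoforms, which makes Ctsl (6489 bases) far longer than its shortest consensus coding transcript (1971 bases). The shorter length of each gene was an alternative chosen after seeing the data. On it the shares of Ctsl were 3.03% in the controls, 7.40% with IL-4 and 5.97% with IL-6. By mean level, Ctsl came before Ctsh in control Mϕs and before Ctsa in IL-6-treated Mϕs, and the other ranks did not change. By mean share with IL-4, Ctsd (29.5%) came before Ctss (27.5%), the reverse of their order by share above. Ctsk and Ctsh were both at 1.12% there.

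**Figure D1:**
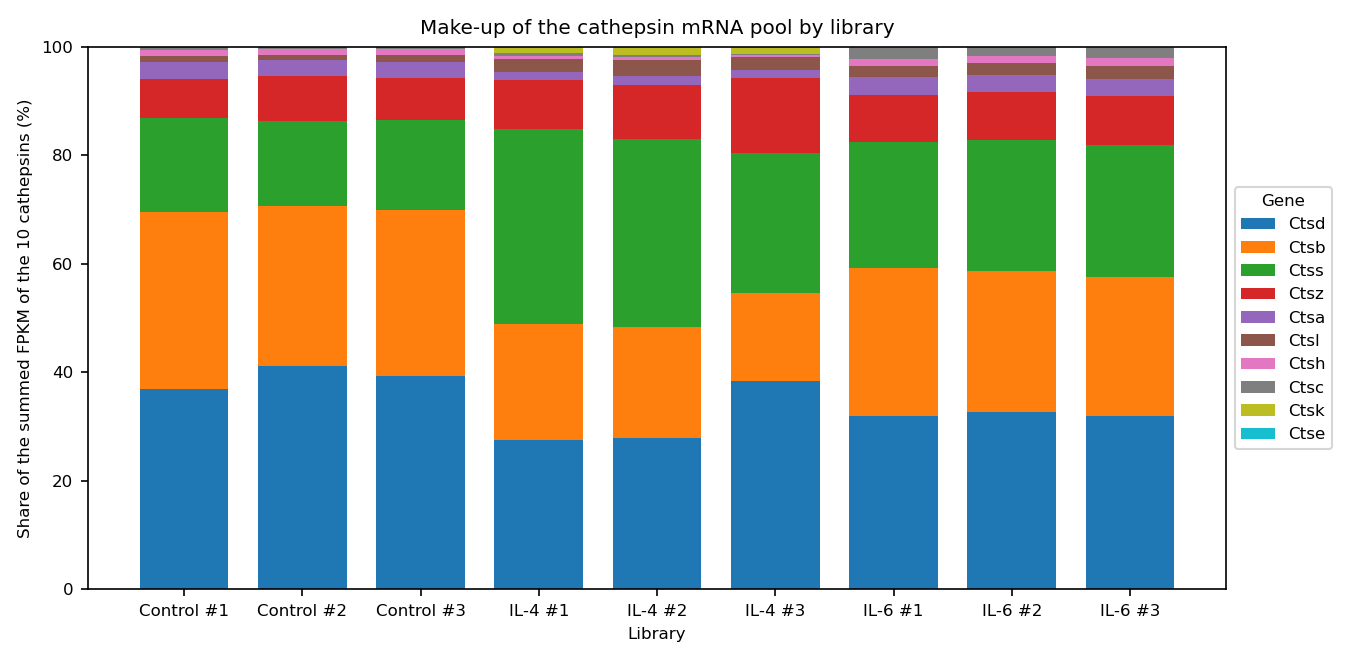
Share of each cathepsin in the summed FPKM of the 10 genes (y axis, %) in each of the 9 libraries (x axis), as stacked bars. Ctss takes 15.7 to 17.4% in the control libraries, 25.9 to 35.9% in the IL-4 libraries and 23.2 to 24.4% in the IL-6 libraries, and Ctsk is visible only in the IL-4 bars.

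The summed FPKM of the family was 11281 to 14780 in the control libraries, 14804 to 20820 in the IL-4 libraries and 10479 to 11503 in the IL-6 libraries. The highest sum was that of IL-4 #3, and the IL-6 libraries overlapped the lowest control. As fragments, the family took 34.5 to 56.3 of every 1000 fragments of a library. IL-4 #1 and #2, at 42.3 and 44.1, lay inside the control range of 39.2 to 49.7, and IL-4 #3 was the highest at 56.3.

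Against control Mϕs, IL-4 changed 6 of the 10 cathepsins, 3 up (Ctsk, Ctsl, Ctss) and 3 down (Ctse, Ctsh, Ctsa). The threshold was a limma adjusted p under 0.05, which 24.8% of all tested genes passed, 8.55% higher and 16.3% lower. With the further demand of a change of at least 2-fold, 4 cathepsins remained, beside 13.9% of all genes. The median log2 fold change was 0.10 over the 10 cathepsins and −0.20 over all tested genes. Rescaling each library by its median ratio moved the latter to −0.00 and the split of all calls from 1096 higher and 2090 lower to 1571 and 1606, and the same cathepsins passed except Ctsa.

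IL-6 changed 2 of the 10 against control, Ctsc up and Ctsb down, beside 8.4% of all tested genes (4.58% higher and 3.82% lower). Only Ctsc, as 1 of 10, also changed at least 2-fold (5.38% of all genes). The median log2 fold change was −0.05 over the cathepsins and −0.00 over all genes. Directly between the cytokines 8 of 10 differed, beside 34.1% of all genes (20.8% higher with IL-6 and 13.3% lower). Ctsc, Ctse, Ctsh and Ctsa were higher with IL-6 and Ctsk, Ctss, Ctsz and Ctsl higher with IL-4, with medians of −0.38 for the cathepsins and 0.22 for all genes (IL-6 minus IL-4). Of these, 4 of 10 differed at least 2-fold, beside 20.4% of all genes. The comparisons share libraries and are not independent of each other. Wherever 3 libraries did not overlap another 3, a two-sided exact permutation test gave p = 0.1, the smallest it allows.

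**Figure D2:**
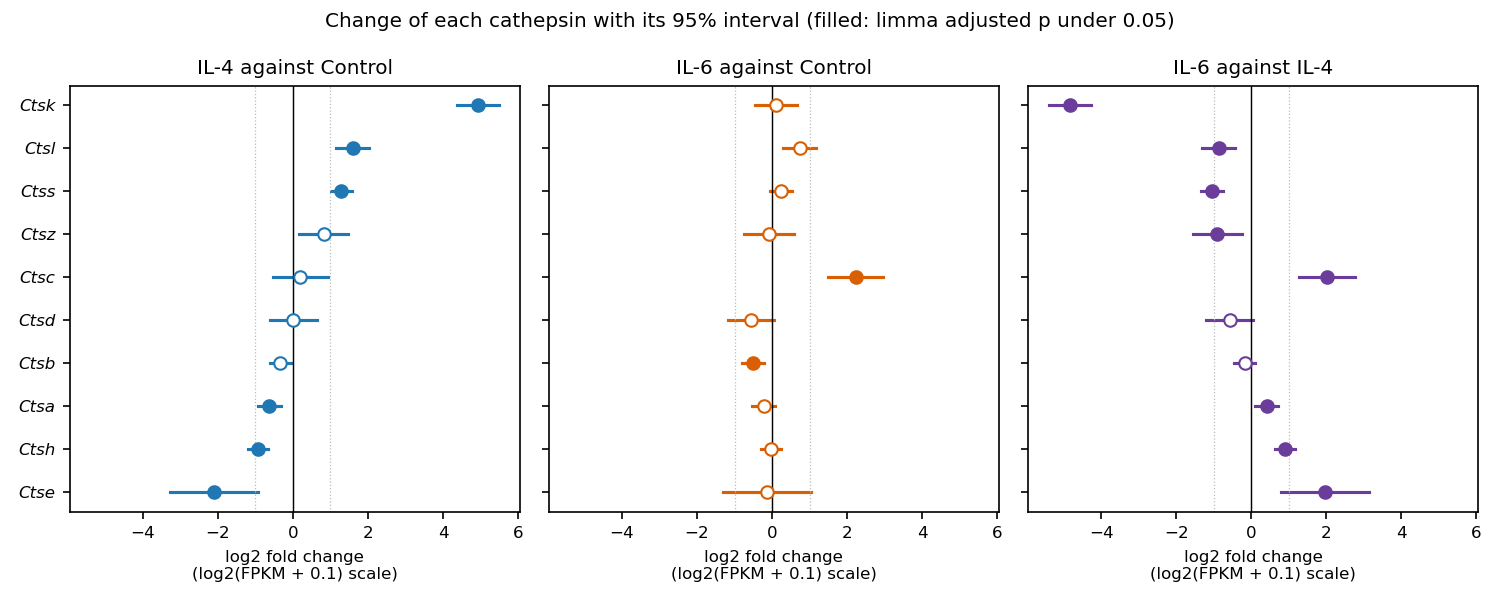
Log2 fold change of each cathepsin (x axis, on the log2(FPKM + 0.1) scale) with its 95% interval from limma, for each of the 3 comparisons, filled where the adjusted p was under 0.05. Genes are in the order of their change with IL-4, from Ctsk at 4.94 to Ctse at −2.11, and Ctsc is the gene that stands to the right for IL-6 at 2.23.

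Ctsk, the collagen-degrading cysteine protease best known from osteoclasts, had the largest response of the family. Its FPKM was 5.19, 7.43 and 9.01 in Control #1 to #3, 163, 232 and 277 in IL-4 #1 to #3, and 7.01, 8.04 and 7.62 in IL-6 #1 to #3. Every IL-4 library was far above every other library, and the control and IL-6 libraries overlapped. Ctsk rose 31.1-fold with IL-4 (log2 fold change 4.94, SE 0.244, limma adjusted p = 7.19e-06). Within one set of libraries, IL-4 #1 against the 3 controls, the ratio was 22.6. The difference between IL-6 and control was 0.10 with a 95% interval of −0.46 to 0.66 (limma adjusted p = 0.852).

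Ctss, a cysteine protease that also works at neutral pH and trims the invariant chain of MHC class II, was 1958, 2317 and 2300 FPKM in the controls. In the IL-4 libraries it was 5317, 5367 and 5400, and in the IL-6 libraries 2426, 2774 and 2583. The IL-4 libraries lay close together, with a coefficient of variation of 0.774%, and above all others, and the IL-6 libraries lay just above the controls without overlap. Ctss rose 2.45-fold with IL-4 (log2 fold change 1.29, SE 0.127, limma adjusted p = 0.000214). The IL-6 difference of 0.25 did not pass (95% interval −0.05 to 0.54, limma adjusted p = 0.329). Since Ctsk rose by far more than Ctss, the FPKM of Ctsk went from 0.326% of that of Ctss in control Mϕs to 4.18% with IL-4, and was 0.291% with IL-6.

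Ctsl, an endopeptidase that degrades a broad range of lysosomal substrates, was 119.8, 148.3 and 174.1 FPKM in the controls. In IL-4 #1 to #3 it was 354.8, 474.0 and 511.9, and in IL-6 #1 to #3 it was 218.3, 244.9 and 265.5. The groups stood apart in the order control, IL-6, IL-4. Ctsl rose 3.03-fold with IL-4 (log2 fold change 1.60, SE 0.190, limma adjusted p = 0.000615). The IL-6 difference from control of 0.73 (SE 0.190) missed the threshold at a limma adjusted p of 0.0535. It passed without IL-4 #1 (adjusted p = 0.0334), without IL-4 #3 (0.0169) and under 4 of 12 other settings. Those were the replicate number as a block (0.0174), only the groups compared (0.0182), quantile normalization (0.00666) and a pseudocount of 1 (0.0498). Allowing for the set of libraries in the fit gave 0.26 (adjusted p = 0.548). Of the stretches of 50 bases in Ctsl transcripts, 6.46% also occur in Gm49230, a processed pseudogene at 0 in every library, or in other genes such as Cflar.

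**Figure D3:**
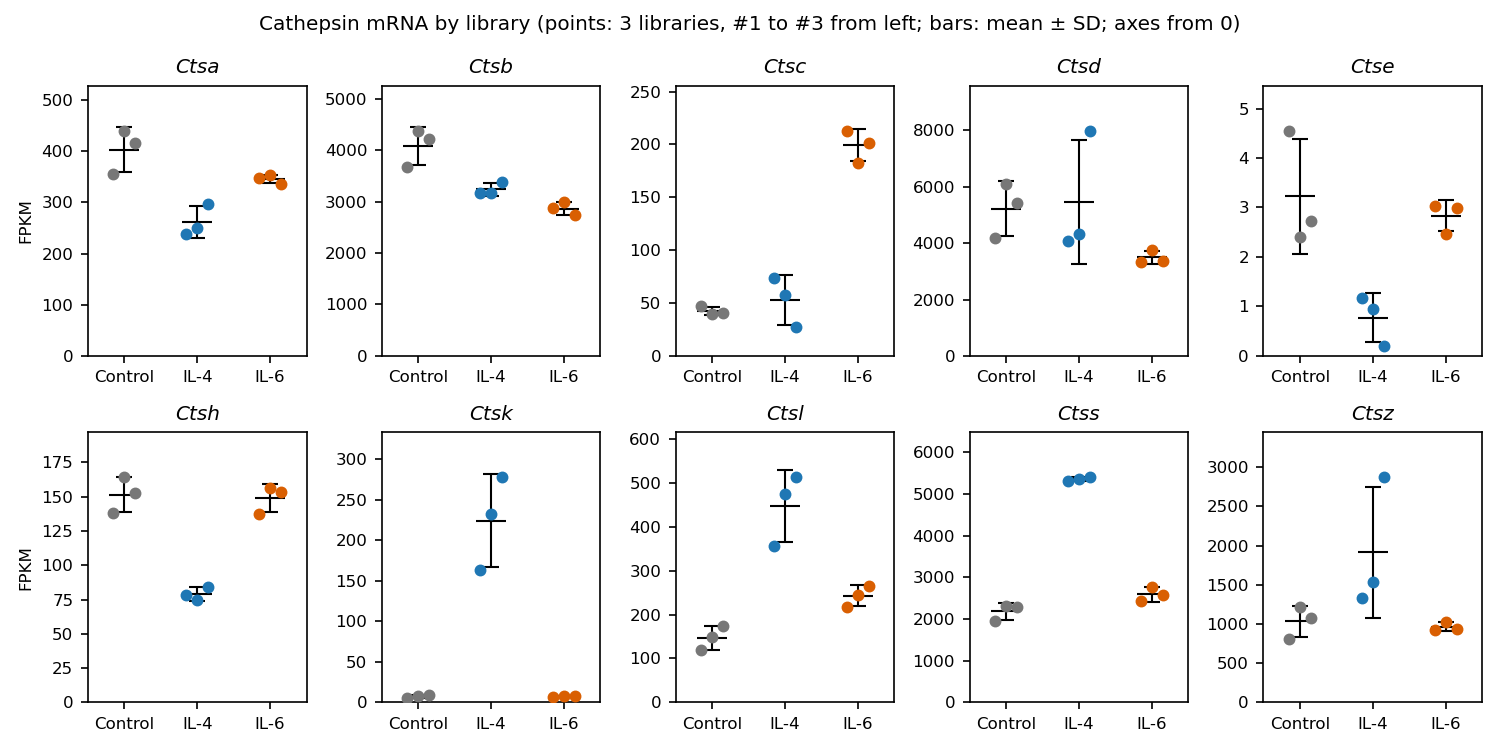
FPKM of each of the 10 cathepsins (y axis, linear from 0, 1 scale per gene) by group, with 1 point per library and bars for mean ± SD (n = 3). IL-4 libraries are above all others for Ctsk, Ctsl, Ctss and Ctsz and below all others for Ctsa, Ctse and Ctsh. IL-6 libraries are above all others for Ctsc and below all others for Ctsb and Ctsd.

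Ctsk and Ctss are neighbours on chromosome 3 (GRCm38, GENCODE M21). Ctsk spans 95499256 to 95509362 and Ctss 95526786 to 95556403, both on the plus strand, with 17424 bases between them. Of 15 genes in the table within 100 kb, 9 were tested, and with IL-4 the 3 that rose were Ctsk, Ctss and Hmgb1-ps5, a processed pseudogene within the span of Ctss on the same strand (2.83, limma adjusted p = 0.000767). The protein-coding neighbours Arnt (−0.60, adjusted p = 0.281), Golph3l (−0.30, adjusted p = 0.541) and Ensa (−0.33, adjusted p = 0.0977) did not pass, and E330034L11Rik fell (−1.31, adjusted p = 0.0134, or 0.175 once the set was in the fit). With IL-6 neither Ctsk nor Ctss passed, and Rps10-ps1, a pseudogene, fell (−1.68, adjusted p = 0.0218, or 0.280 once the set was in the fit). Without IL-4 #3 Golph3l was also called, higher with IL-6 (0.53, adjusted p = 0.0181).

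**Figure D4:**
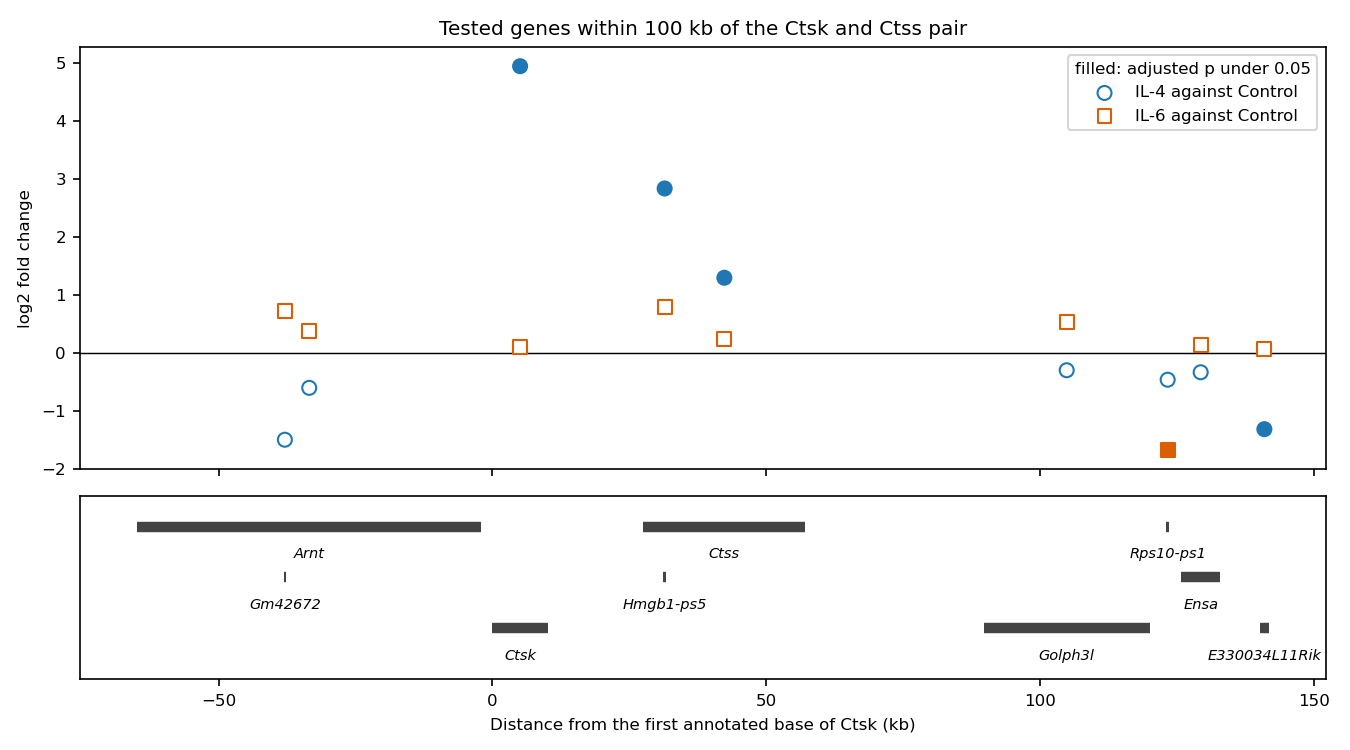
Upper panel, log2 fold change (y axis) of the 9 tested genes within 100 kb of Ctsk and Ctss, with IL-4 (circles) and IL-6 (squares) against control, filled where the limma adjusted p was under 0.05. Lower panel, the span of each gene as distance from the first base of Ctsk (x axis, kb). The filled circles above 0 are Ctsk, Hmgb1-ps5 and Ctss.

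Ctsb, which cuts both within proteins and from their carboxyl end, was 3672, 4372 and 4219 FPKM in the controls. The IL-4 libraries held 3159, 3167 and 3379, the IL-6 libraries 2868, 2987 and 2730. Both treated groups lay below all controls and the IL-6 libraries below the IL-4 libraries. Ctsb fell with IL-6 by 0.51 on the log2 scale (SE 0.126, limma adjusted p = 0.0427). That call held without Control #1 or IL-4 #3 and was lost without any other single library (adjusted p 0.0536 to 0.182), after median-ratio rescaling (0.163), after removal of length and GC trends (0.131), with the replicate block (0.0714) and with the set as a term (0.257). With IL-4 the difference was −0.33 (limma adjusted p = 0.0880), or −0.37 (adjusted p = 0.0344) without IL-4 #3. It also passed after quantile normalization (−0.51, adjusted p = 0.0145) and by limma voom (−0.32, adjusted p = 0.0497).

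Ctsd was 4168, 6078 and 5429 FPKM in the controls, 4081, 4318 and 7974 in IL-4 #1 to #3, and 3339, 3762 and 3383 in IL-6 #1 to #3. IL-4 #3 was the highest library of all and the other IL-4 libraries lay near the lowest control, so that the mean IL-4 difference of 0.01 (95% interval −0.61 to 0.63, limma adjusted p = 0.981) joins unlike libraries. The IL-6 libraries lay below every control. That difference, −0.56 (SE 0.269), had a limma adjusted p of 0.283 with all libraries. The adjusted p was 0.0281 without IL-4 #3 and 0.0476 with only the groups compared, since all groups share the estimate of spread in the main fit. Of the 50-base stretches of Ctsd, 32.4% also occur in Gm49369, an overlapping gene on the same strand with 1.12 to 6.81 FPKM, and how such fragments were counted is not stated.

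Ctsz, a carboxypeptidase also called cathepsin X, was 814, 1212 and 1071 FPKM in the controls. The IL-4 libraries held 1337, 1532 and 2870, the IL-6 libraries 920, 1032 and 941. The IL-4 libraries lay above all others, IL-4 #3 far above the rest, and the control and IL-6 libraries overlapped. The IL-4 difference from control of 0.83 (SE 0.286) had a limma adjusted p of 0.0700, and 0.0345 without IL-4 #1. It was 0.49 (adjusted p = 0.0543) without IL-4 #3 and 0.39 (adjusted p = 0.623) once the set was in the fit. It passed under 2 of 12 other settings. These were removal of length and GC trends (0.96, adjusted p = 0.00454) and quantile normalization (0.68, adjusted p = 0.0313). Ctsz was lower with IL-6 than with IL-4 by 0.91 (SE 0.286, limma adjusted p = 0.0405), and by 0.57 (adjusted p = 0.0280) without IL-4 #3. The latter call also held without Control #1 or IL-4 #1 and was lost without any of the other 6 libraries (adjusted p 0.0524 to 0.114), with no filter on low genes (0.0702) and with only the groups compared (0.0792).

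Ctsh, an aminopeptidase, was 138, 164 and 152 FPKM in the controls, 78.4, 74.4 and 84.4 in IL-4 #1 to #3, and 137, 157 and 153 in IL-6 #1 to #3. The IL-4 libraries were well below all others and the control and IL-6 libraries overlapped. Ctsh fell with IL-4 by 0.93 on the log2 scale (SE 0.117, limma adjusted p = 0.000727), to 0.522 times the control mean. With IL-6 the difference was −0.02 (95% interval −0.29 to 0.24, limma adjusted p = 0.930), and IL-6-treated Mϕs were 0.91 above IL-4-treated Mϕs (adjusted p = 0.000605).

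Ctsa, the carboxypeptidase that also protects neuraminidase and beta-galactosidase in lysosomes, was 355, 440 and 415 FPKM in the controls. The IL-4 libraries held 238, 250 and 297, the IL-6 libraries 348, 353 and 336. The IL-4 libraries lay below all others, and the IL-6 libraries just below the controls. Ctsa fell with IL-4 by 0.63 (SE 0.134, limma adjusted p = 0.0106), less than the others that fell. That call was lost with only the groups compared in the fit (adjusted p = 0.0596), after median-ratio rescaling (−0.42, adjusted p = 0.186) and after removal of length and GC trends (−0.34, adjusted p = 0.176), an alternative added after seeing the data. Ctsa was 0.41 higher with IL-6 than with IL-4 (limma adjusted p = 0.0448). That call held without Control #1 or IL-4 #3 and was lost without any of the other 7 libraries (adjusted p 0.0599 to 0.129). It was also lost under 7 of 12 other settings, with adjusted p from 0.0537 to 0.512, among them the replicate block (0.0542) and the term for the set (0.0909).

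Ctse, an aspartic protease of endosomes, was the lowest of the family. It was 4.55, 2.40 and 2.72 FPKM in the controls, 1.16, 0.958 and 0.206 with IL-4 (26 to 126 fragments per library), and 3.04, 2.47 and 2.99 in IL-6 #1 to #3. The IL-4 libraries lay below all others, IL-4 #3 by far the lowest, and the control and IL-6 libraries overlapped. Ctse fell with IL-4 by 2.11 on the log2 scale (SE 0.510, limma adjusted p = 0.0183). Without IL-4 #3 it fell by 1.47 (adjusted p = 0.00330). The call was lost without Control #1 (adjusted p = 0.0713), without Control #3 (0.0508), with only the groups compared (0.0667) and with the set as a term (−1.34, adjusted p = 0.267). Ctse was 1.98 higher with IL-6 than with IL-4 (limma adjusted p = 0.0188), which was lost without IL-6 #1 (0.0622) or #3 (0.0604).

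Ctsc, the dipeptidyl peptidase that activates the serine proteases of granulocyte and lymphocyte granules, was the cathepsin that rose with IL-6. Its FPKM was 46.9, 39.7 and 41.0 in Control #1 to #3, 73.9, 57.6 and 27.1 in IL-4 #1 to #3, and 212.7, 182.9 and 201.7 in IL-6 #1 to #3. Every IL-6 library was above every other library, while the IL-4 libraries lay on both sides of the controls. Ctsc rose 4.68-fold with IL-6 (log2 fold change 2.23, SE 0.323, limma adjusted p = 0.00475). With the set as a term the change was 3.13 (adjusted p = 0.0304). Within the set that holds all IL-6 libraries, Ctsc in the IL-6 libraries was 4.70 times its mean in IL-4 #2 and #3. That ratio compares the cytokines, not IL-6 with control. Both it and the term for the set draw on IL-4 #3, the lowest library for Ctsc. Without IL-4 #3, Ctsc was higher with IL-6 than with IL-4 by 1.61 (limma adjusted p = 5.4e-05). The IL-4 difference from control was 0.20 (limma adjusted p = 0.683), and 0.62 (adjusted p = 0.00769) without IL-4 #3, the library that lay below the controls. The ratio of Ctsk to Ctsc, 17.3% in control Mϕs, was 221 to 1024% over the IL-4 libraries, highest in IL-4 #3, and 3.83% with IL-6.

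Genes that act with cathepsins were followed in lists. Invariant chain and MHC class II genes, the antigen presentation genes that Ctss and Ctsl are known to serve, rose with IL-4 in 8 of 8 cases (median log2 fold change 3.26), and 0 of 8 passed by limma with IL-6 (median 0.02), nor did any at an unadjusted p under 0.05. Over all tested genes the medians were −0.20 and −0.00. Without IL-4 #3 the IL-4 count was 8 as well, and a term for the set left 7. Cd74, the invariant chain itself, was 281 to 382 FPKM in the controls, 4130 to 8732 with IL-4 and 284 to 370 with IL-6, so the IL-4 libraries lay above all others. Its log2 fold change with IL-4 was 4.01 (SE 0.288, limma adjusted p = 4.68e-05). H2-Ab1 rose by 3.92 (adjusted p = 2.49e-05) and H2-Aa by 3.62 (adjusted p = 6.06e-06).

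The cathepsin inhibitors moved most with IL-6, with 5 of 9 tested genes up, 1 down and a median of 2.06. With the set as a term 2 of the 9 rose and 0 fell by limma. Stfa1, Stfa3 and Stfa2, stefins that block papain-type cathepsins in the cytosol, had log2 fold changes of 6.03, 5.91 and 5.10 (limma adjusted p = 0.000597, 0.000537 and 0.000137). Stfa1 was 0.137 to 0.955 FPKM in the controls, 0.700 to 1.74 with IL-4 and 21.1 to 44.2 with IL-6. These paralogs are close to each other in sequence and their fragments may be divided between them, and once the fit held the set as a term the adjusted p of Stfa1 was 0.0635. Stfa2l1 rose by 2.06 (0.311 with that term). Cst7, an inhibitor found in endosomes that targets Ctsc and Ctsl, rose by 2.11 (adjusted p = 0.00167, or 0.0597 with that term), and Serpinb6a fell by 1.44 (adjusted p = 0.0240, or 0.0932 with that term). With IL-4, 2 inhibitors rose (Stfa2 by 1.71, Cst7 by 0.91) and 1 fell (Serpinb1a by 0.89), with a median of 0.37. A term for the set left 0 of these 3 calls by limma (adjusted p 0.126, 0.104 and 0.0515). The abundant cystatins Cstb and Cst3 did not pass against control with either cytokine. Cst3 was 463 to 687 FPKM in the controls and 265 to 308 with IL-6, without overlap (−0.98, limma adjusted p = 0.101). The summed FPKM of the 10 listed inhibitors was 1064 to 1562 in the controls, 1257 to 2448 with IL-4 and 994 to 1074 with IL-6.

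Of the genes of cathepsin maturation and sorting, 1 of 9 passed with IL-4 (median −0.22), namely Gnptg, a subunit of the enzyme that tags lysosomal enzymes with mannose phosphate, which fell (−0.59, limma adjusted p = 0.0415). That call was lost with a term for the set (0.0961) and after median-ratio rescaling. With IL-6 0 of 9 passed by limma and 0 of the 8 fitted by limma voom (median −0.15), 4 had an unadjusted p under 0.05, and without IL-4 #3 2 were higher and 4 lower. Lgmn, the legumain that cleaves several cathepsin precursors, was 771 to 929 FPKM in the controls, 750 to 863 with IL-4 and 693 to 841 with IL-6, and these ranges overlapped. Of the 3 partners of Ctsa (median −0.49 with IL-4 and −0.31 with IL-6), Neu1 (−0.49, adjusted p = 0.0153) and Galns (−0.74, adjusted p = 0.00192) fell with IL-4, in the direction of Ctsa, and Galns also fell with IL-6 (−0.76, adjusted p = 0.00462). Glb1, the beta-galactosidase, went the other way with IL-4 but did not pass (0.26, limma adjusted p = 0.129). The IL-4 libraries lay above every control for Glb1. Once the set was in the fit, Neu1 (0.0501) with IL-4 and Galns (0.160) with IL-6 did not pass. Of the 4 lysosomal gene regulators (medians 0.28 and 0.05), Tfec rose with IL-4 (0.54, adjusted p = 0.0174), and Tfeb fell with IL-6 (−0.91, adjusted p = 0.0147), from 12.7 to 15.5 FPKM in the controls to 6.78 to 7.87. The call of Tfeb was lost with a term for the set (0.0807) and after median-ratio rescaling.

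**Figure D5:**
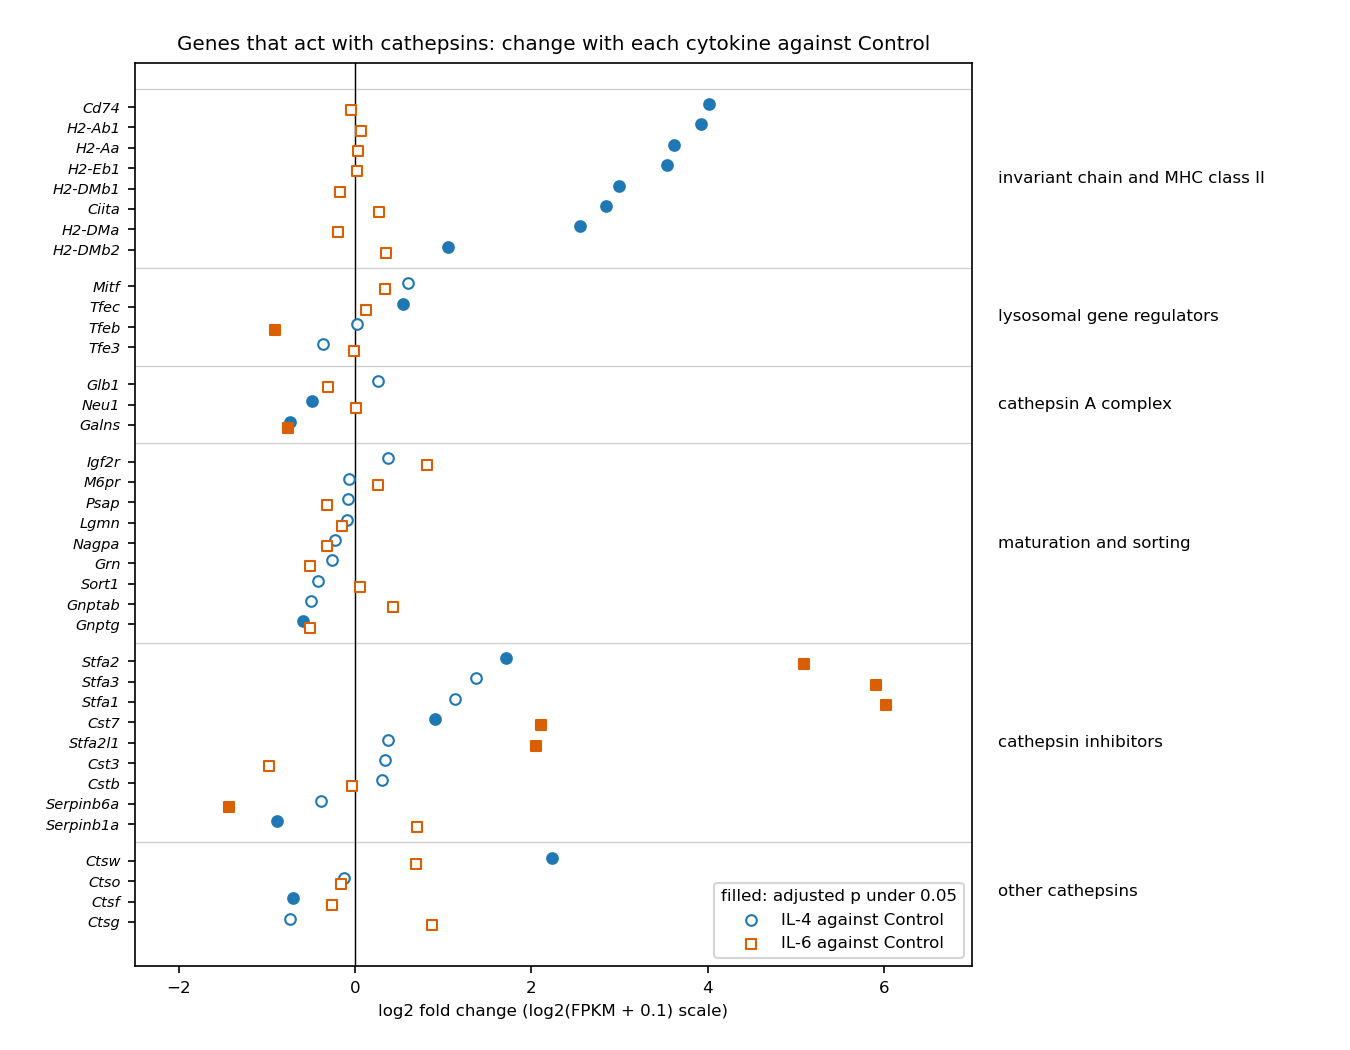
Log2 fold change (x axis, log2(FPKM + 0.1) scale) of tested genes (y axis) that act with cathepsins, by list, with IL-4 (circles) and IL-6 (squares) against control, filled where the limma adjusted p was under 0.05. The MHC class II genes are to the right with IL-4, from 1.05 to 4.01, and the stefins Stfa1, Stfa2 and Stfa3 to the right with IL-6, from 5.10 to 6.03.

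Of 13 other genes named as cathepsins, 7 were at 0 in all libraries and 4 were tested (median −0.41 with IL-4 and 0.26 with IL-6). Ctsw, a cathepsin of cytotoxic lymphocytes, rose with IL-4, from 0.244 to 0.416 FPKM in the controls to 1.45 to 2.38 (log2 fold change 2.23, limma adjusted p = 0.000688). Beside it, T and NK cell markers, none of them high enough to be tested, summed to 0.377 to 0.488 FPKM in the controls, 1.22 to 2.41 in the IL-4 libraries and 0.496 to 0.675 in the IL-6 libraries, and their part in the rise was not tested. Ctsf fell (−0.71, adjusted p = 0.0106, or 0.0756 with a term for the set). With IL-6 0 of these 4 passed by limma, 2 had an unadjusted p under 0.05, and 0 of the 2 fitted by limma voom passed. Ctsg, a granule serine protease that Ctsc activates, was 10.5 to 22.8 FPKM in the controls and 21.4 to 36.7 with IL-6, which overlap (0.88, adjusted p = 0.188).

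Markers of other cell types moved beside these results, and in whole cultures fewer cells of a type and less RNA per cell cannot be told apart. Beside the rise of Ctsk, 4 of 5 tested osteoclast markers rose with IL-4, and the summed FPKM of the 7 listed went from 207 to 272 in the controls to 772 to 877. Ocstamp rose by 6.80, Dcstamp by 5.12 and Acp5 by 3.18 (limma adjusted p = 4.22e-06, 3.04e-06 and 0.000134), and Mmp9 fell by 1.80 (adjusted p = 0.00103). With IL-6 the sum was 95.6 to 145, Dcstamp and Atp6v0d2 fell, and Ctsk did not pass. Macrophage markers fell with IL-4 in 5 of 7 cases, from a sum of 3105 to 3278 FPKM to 1596 to 1766. With the set as a term 2 of 7 fell, and after median-ratio rescaling 3 fell and 1 rose. Itgam, in the same list, did not fall. It was 33.7 to 36.8 FPKM in the controls, 37.2 to 72.3 with IL-4 and 62.3 to 75.1 with IL-6. Itgam did not pass with either cytokine (limma adjusted p = 0.0701 and 0.0608). With IL-6 the sum of the macrophage markers was 3027 to 3232, C1qa rose and Cd68 fell. Once the set was in the fit, Dcstamp (0.139), C1qa (0.208) and Cd68 (0.170) did not pass.

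Granulocyte precursor markers, which include substrates of Ctsc, fell with IL-4 in 7 of 8 cases (3 with the set as a term), from a sum of 1008 to 1676 FPKM to 343 to 541. With IL-6 their sum was 1647 to 2283, just overlapping the controls, and Mmp8 was the 1 of 8 that rose (1.38, limma adjusted p = 0.0112, or 0.0682 with the term for the set), while 8 of 8 were higher with IL-6 than with IL-4. Beside Ctse, the dendritic cell marker Siglech fell with IL-4 (−1.75, adjusted p = 0.00599, or 0.0971 with that term), 1 of 3 tested in that list. B cell markers summed to 18.9 to 49.7 FPKM with 0 of 4 passing by limma or limma voom in either comparison with control, and 0 at an unadjusted p under 0.05. Stroma markers stood below 0.640, with none tested. Skeletal muscle markers summed to 1.97 to 14.3, and of 4 tested Tnni2 fell with both cytokines, with IL-6 at an adjusted p of 0.139 once the set was in the fit. The other muscle genes, Acta1, Mylpf and Tnnt3, had positive values of 0.81 to 1.66 with IL-4 and at least 1.60 with IL-6 that did not pass, and the median of the 4 was 1.21 and 1.97. Paneth and goblet cell markers fell in 3 of 9 tested cases with IL-4 (0 without IL-4 #3) and 9 of 9 with IL-6 (0 by limma with the term for the set), which repeats the division of the libraries. The part of any of these cells in the cathepsin results was not tested.

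The genes with profiles nearest to each cathepsin over the 9 libraries were found by the root mean square difference of log2 values, each gene centred on its own mean. For Ctsk they were Btbd17 (0.230) and Hebp2 (0.240), against a spread of 2.32 of Ctsk itself. Btbd17 was 0.0314 FPKM on average in the controls and 3.68 with IL-4, with little in the IL-6 libraries. For Ctss they were Zyx (0.0863) and Oip5 (0.107), for Ctsl Nxn (0.120) and Procr (0.141), and for Ctsz 2210016F16Rik (0.0482) and Ube2s (0.0566). Ctsc was nearest to Cysltr1 (0.181), a leukotriene receptor with a mean of 3.01, 3.20 and 11.4 FPKM in the controls, the IL-4 and the IL-6 libraries, and to Spred3 (0.219). Ctsh was nearest to Cln6 (0.0780), a gene of lysosomal storage disease, and Fam234a (0.0781), and Ctsa to Ppp1r16a (0.0528) and Wbp2 (0.0561). The genes nearest to Ctsb were Trpv2 (0.0548) and Cyb5a (0.0636), those nearest to Ctsd were Sgf29 (0.0646) and Blvrb (0.0764), and those nearest to Ctse were Iqgap2 (0.131) and Cd33 (0.165). These likenesses were picked from all tested genes in libraries of shared depth and set, and are descriptions.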

How the data were processed

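RNA-seq of mouse BM-derived Mϕs (9 libraries in 3 groups of 3) was analysed from the deposited table. The authors deposited their values as FPKM. The submitters' processing notes name STAR 2.4.2a and Cufflinks 2.2.1, and the methods name GRCm38 with GENCODE M5. Low values were tested against GENCODE M21 exon lengths: 100881 of 100881 were whole fragments within 0.05, so which program and annotation made it is not settled. The library kit keeps strand, and whether counting used it is not stated.

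Genes with a mean of at least 0.5 FPKM were fitted as log2(FPKM + 0.1), which understates changes of low genes, with limma 3.58.1 (R 4.3.3, eBayes with trend and robust options, 3 groups in one fit, two-sided, Benjamini-Hochberg adjustment over 12824 genes). All adjusted p-values are from limma. Folds divide mean FPKM, and SD are over 3 libraries. The number of fragments behind a value limits its precision by counting error only. The fit was also run on simulated data, and the outcome of that run is not given here. Python 3.11.15, numpy 2.4.6, pandas 2.3.3, scipy 1.17.1 and matplotlib 3.10.9 made the rest.

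The cathepsins and the 15 gene lists were chosen with earlier results of these data known. Named genes are the 10 cathepsins, from each list up to 3 called genes of largest change per comparison, and for each cathepsin the 2 nearest profiles. Further genes are named where a count is small or as background to a list, and these were chosen after their values were seen.

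Libraries of a number may come from the same mouse, but no label states it outright. The labels name 3 mice, and the column headers number the libraries of each group m1 to m3. The main fit left this pairing out, so its p-values treat all libraries as independent. Same-numbered deviations from group means correlated at 0.521, −0.415 and 0.0777 (control and IL-4), 0.408, 0.201 and 0.166 (control and IL-6) and 0.281, −0.0612 and 0.153 (IL-4 and IL-6). The replicate block was an alternative, beside pseudocounts, filters, scalings, samples in the fit, variance options, the set of libraries as a term, limma voom on recovered fragments and leaving out each library. Length and GC trend removal (splines with 5 degrees of freedom) and the consensus coding length were added after the data were seen.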

Additional observations from a re-analysis of the deposited data

How the results depend on the processing

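Of 627 refitted changes of single cathepsins, 555 kept their direction and side of the threshold, 42 lost a call, 15 gained one and 15 changed sign, of which 0 were called with the sign changed or before. After quantile normalization these were Ctsb between the cytokines (0.069), Ctsd with IL-4 (−0.45) and Ctsh with IL-6 (0.066). A term for the set gave Ctsd −0.34 with IL-4, and Ctse 1.02 and Ctsk −0.54 with IL-6, and trend removal gave Ctsz 0.053 with IL-6. Without one library, Ctsc with IL-4 ran from −0.10 (without IL-4 #1) to 0.62 and Ctsd from −0.30 (without IL-4 #3) to 0.19, being −0.14 without Control #1. Likewise Ctse with IL-6 ran from −0.31 to 0.14 (without Control #1), Ctsh from −0.088 to 0.036 (without Control #2, and 0.035 without IL-6 #1), Ctsk from −0.12 (without Control #1) to 0.28 and Ctsz from −0.24 to 0.045 (without Control #2). The number of cathepsins called between IL-6 and control, 2, was 1 after median-ratio rescaling, with the library set as a term, after removal of length and GC trends and with the 2-fold demand, and 4 when only the groups compared were fitted. Leaving out each library gave 1 to 4 there, 4 being without IL-4 #3 and 1 without Control #2, Control #3, IL-4 #2 or any IL-6 library, and 5 to 8 for IL-4 against control (8 without IL-4 #3). Between IL-6 and IL-4 it was 5 to 8 without one library, 5 being without IL-6 #1 or #3, and 4 with the 2-fold demand. With the replicate block, which pairs same-numbered libraries, 6, 2 and 7 cathepsins were called for IL-4 against control, IL-6 against control and IL-6 against IL-4. Over all 12824 tested genes that block gave 3023, 908 and 4463 calls in the same order. The cathepsin calls that changed were Ctsb and Ctsl with IL-6 and Ctsa between the cytokines. Over all genes, 3186 calls between IL-4 and control became 1796 with only those groups fitted, 1367 with the set as a term, 1839 at a mean of at least 5 FPKM (6559 genes tested) and 2026 (without Control #3) to 4848 (without IL-4 #3) without one library. The 1077 calls between IL-6 and control became 2822, 187, 628 and 462 to 3168 in the same order and without the same libraries, and 1833 after trend removal. The 4375 between IL-6 and IL-4 became 2479 at 5 FPKM and 2911 (without IL-6 #3) to 5544 (without IL-4 #3) without one library, and the split of 2671 higher and 1704 lower became 2197 and 2336 after median-ratio rescaling. Consensus coding length moved 21 of 30 shares in the pool by more than the spread of the libraries. The cause of these changes was not tested.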
